A study of Mus musculus with 9 samples.

Results

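The 36 genes described here mark monocytes and macrophages and were read in isolated glomeruli, the capillary tufts in which the kidney filters blood. They were taken by gene name from a list of myeloid receptors, adaptors and phagocyte enzymes, chosen with earlier results of these data known. They are 36 of the 26826 named genes on the array and hold 67 of its 56605 probes. Glomeruli were isolated with magnetic beads from male BTBR mice at 22 weeks of age. The 3 groups had 3 samples each, every sample on its own one-colour array: BTBR wild type on vehicle food, BTBR ob/ob on vehicle food and BTBR ob/ob on food with enarodustat, all fed for 18 weeks. The ob/ob mutation removes working leptin, and these mice develop obesity and diabetes. Enarodustat blocks the prolyl hydroxylases, which tag hypoxia-inducible factor for breakdown. No enarodustat-fed wild-type group was analysed here, and the comparisons share arrays, both ob/ob groups being set against the same wild-type arrays and the drug against the same ob/ob vehicle arrays. The labels do not say whether a sample is 1 mouse or a pool, so p values measure the spread between these samples, which may be technical.

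Monocytes enter the kidney from the blood and can become macrophages, which engulf debris, bind antibody-coated particles and digest them in lysosomes. They depend on the growth factor receptor encoded by Csf1r and on the transcription factor PU.1, encoded by Spi1. In a glomerulus they lie in the capillaries and the mesangium, and they are few beside podocytes, endothelial and mesangial cells. A glomerular extract mixes all of these cells, so more cells of a type and more RNA per cell cannot be told apart.

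Values are log2 of the processed signal minus the 75th percentile of the same array, so that 0 stands for that percentile. A gene was read from its brightest probe among those well above background on all 3 arrays of some group, and levels of different probes are not set against each other. The 75th percentile ranged from 210.4 to 325.3 units over the 9 arrays, no spot was saturated, and correlations across probes were 0.978 to 0.987 within groups and 0.967 to 0.984 between them. All 15 podocyte markers, 14 endothelial markers and 13 mesangial markers on the lists were tested, with list medians between 2.72 and 5.37 on every array. Of the 36 members, 32 passed the filter on dim probes. The other 4, Spi1, Ccr1, Cd163 and Gpnmb, were read by no probe that met this and were not tested.

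In ob/ob vehicle glomeruli the macrophage genes were higher than in wild type. The median log2 difference over all 36 members, without any filter, was 1.60, against 0.04 over all features on the array. Called at an adjusted p under 0.05 with limma, 25 of the 32 tested members were higher and 0 lower, where 4.88% of the 24155 features tested were called higher and 2.66% lower (7.54% in all). At an unadjusted p under 0.05, 27 were higher and 1 lower, against 13.7% and 9.84% of features. The 3 ob/ob vehicle arrays lay above all 3 wild-type arrays for 27 of the 32, against 17.8% of features. Members such as Fcgr1 and Cd86 entered the test only through the ob/ob groups, where they were bright, so the count over the 32 is a description. The members were chosen with earlier results of these data known, so setting them beside all features is a description too. With no filter on dim probes, 20 of 36 members were called higher, against 1.82% of 37482 features, and 0 lower, against 0.864%. Of the 27 members measured above background on each of the 9 arrays, 21 were called higher and 0 lower, against 5.6% and 2.97% of 21528 features. With normexp background correction with an offset of 50, which compresses dim signals, 23 members were called and the median was 0.81.

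With enarodustat the same genes lay mostly between wild type and ob/ob vehicle. Over the 32 tested members, the mean of the enarodustat arrays was below that of ob/ob vehicle for 28 and above that of wild type for 30. The share of all features with these orders is not given. The members were chosen with earlier results known. High ob/ob vehicle values enter both the rise over wild type and the fall with enarodustat, so these counts are a description. No member was called against ob/ob vehicle by limma, 0 higher and 0 lower, where 0% of features were called. At an unadjusted p under 0.05, 7 members were lower and 0 higher, against 3.59% and 3.43% of features (7.02% in all). With no filter on dim probes 4 of 36 were lower and 0 higher at that threshold, for which the share of all features is not given. The median difference over all 36 members was -0.23, against 0.02 over all features. Against wild type, 20 of the 32 tested members were higher with enarodustat and 0 lower, where 6.11% of features were called higher and 4.09% lower (10.2% in all), and the median over all 36 members was 1.11, against 0.05. With no filter on dim probes 9 of 36 were higher, against 2% of features, and 0 lower, against 1.28%. With 1 array left out, the count of 20 ranged from 9 to 20. It was 10 without wild-type replicate 2 and 13 without wild-type replicate 3. It was 9 without enarodustat replicate 1 and 11 without enarodustat replicate 2. The share of all features called in these fits is not given. The lower counts may follow fewer calls over all features, which was not tested.

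**Figure D1:**
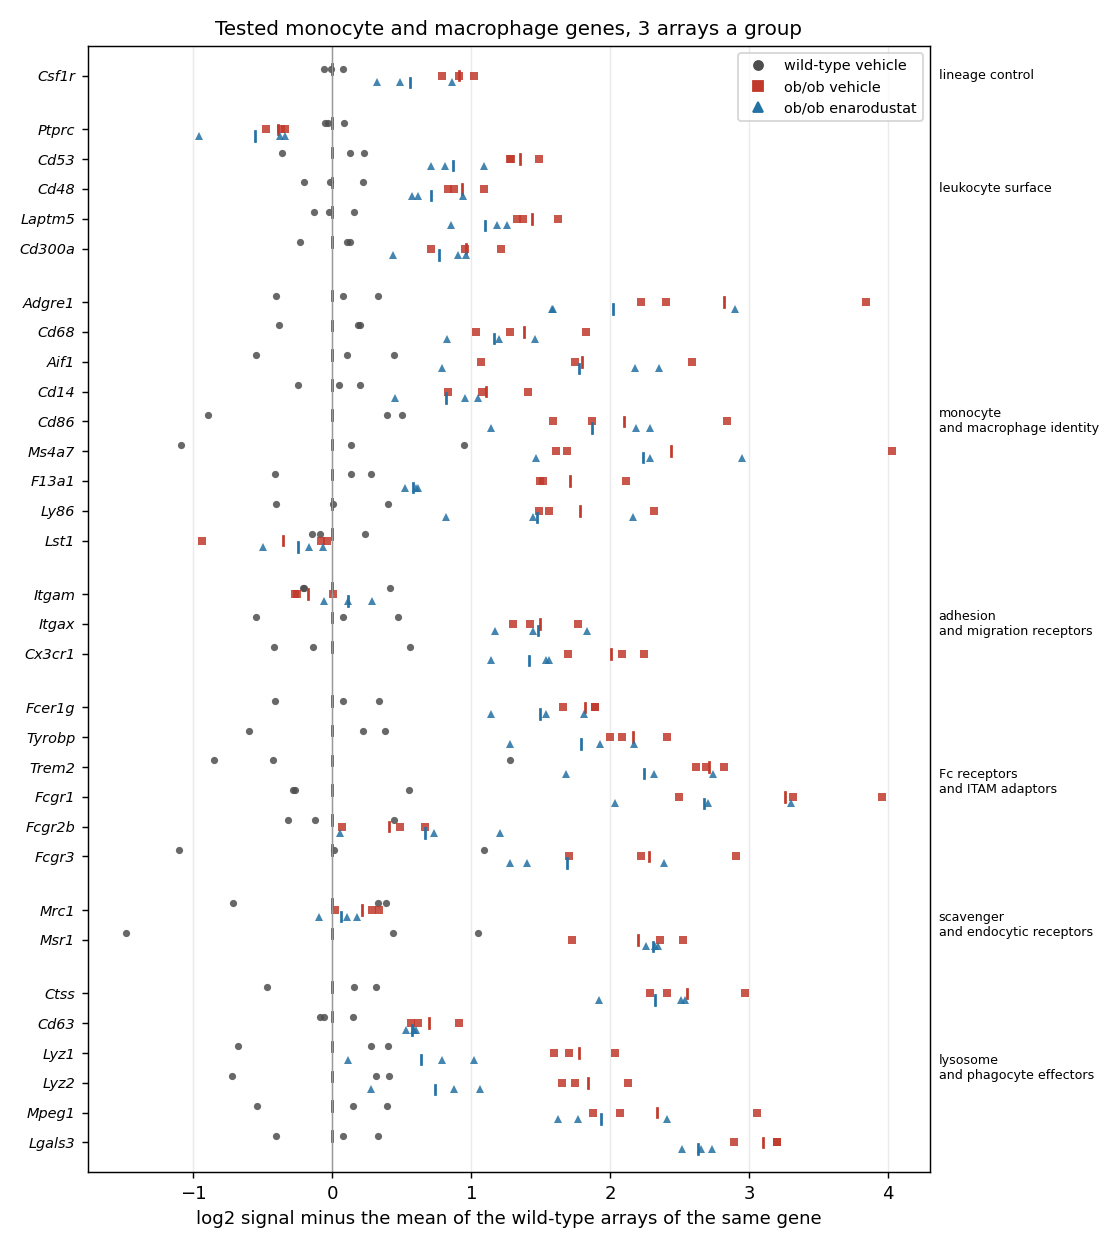
Each row is 1 tested member and each point 1 array, as the log2 signal minus the mean of the 3 wild-type arrays of the same gene. Ticks are group means, with circles for wild type, squares for ob/ob vehicle and triangles for ob/ob enarodustat. For 27 of the 32 members all squares lie to the right of all circles, and for Ptprc, read from its brightest probe, all squares lie to the left.

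Csf1r encodes the receptor for the growth factors that keep monocytes and macrophages alive. It read 2.16, 2.08 and 2.03 on the wild-type arrays, 3.11, 2.88 and 3.00 on the ob/ob vehicle arrays and 2.95, 2.57 and 2.41 with enarodustat, replicates 1 to 3 in this order here and throughout. The ob/ob vehicle arrays were all above the wild-type arrays and overlapped those with enarodustat, of which replicate 1 was the highest. It was 1.88-fold higher in ob/ob vehicle than in wild type (log2 0.91 ± 0.15 SE, adjusted p = 0.00996). With enarodustat it was 0.35 ± 0.15 below ob/ob vehicle, written as a log2 difference of -0.35 (adjusted p = 0.707), and 0.56 ± 0.15 above wild type (adjusted p = 0.0522). A second Csf1r probe did not follow this pattern, with a log2 difference of 0.06 ± 0.14 between ob/ob vehicle and wild type. Read from the mean of both probes, Csf1r was no longer called (0.49, adjusted p = 0.0594). Spi1, the gene of PU.1, did not rise clearly over background on a single array. Its signals ran from -7.49 to -7.00 in wild type, from -6.90 to -5.53 in ob/ob vehicle and from -6.53 to -5.80 with enarodustat, and no fold is given for it.

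The leukocyte surface genes rose in ob/ob glomeruli, 4 of 5. The exception was the pan-leukocyte gene Ptprc as read from its brightest probe, while its probes that list a RefSeq mRNA rose. The share of all features called higher than in wild type was 4.88% in ob/ob vehicle and 6.11% with enarodustat. Cd53, a tetraspanin of leukocytes, read -4.22, -4.12 and -4.71 in wild type, -2.86, -3.06 and -3.07 in ob/ob vehicle and -3.54, -3.64 and -3.26 with enarodustat. None of its 3 groups overlapped. It was 2.55-fold higher in ob/ob vehicle than in wild type (1.35 ± 0.18, adjusted p = 0.00442) and 1.83-fold higher with enarodustat than in wild type (0.87 ± 0.18, adjusted p = 0.0195), the last a call that was lost without enarodustat replicate 1 (adjusted p = 0.0504) or 3 (0.0653). Laptm5, a lysosomal membrane protein of blood cells, read -2.59, -2.30 and -2.48 in wild type, -1.13, -0.83 and -1.09 in ob/ob vehicle and -1.20, -1.27 and -1.60 with enarodustat. Its groups were also apart from each other, with the enarodustat arrays just below those of ob/ob vehicle. It was 2.71-fold higher in ob/ob vehicle (1.44 ± 0.15, adjusted p = 0.00217) and 2.14-fold higher with enarodustat (adjusted p = 0.00509), each against wild type.

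Cd48, a ligand on leukocytes for activating and adhesion receptors, read -1.20, -1.45 and -1.64 in wild type, -0.34, -0.56 and -0.60 in ob/ob vehicle and -0.49, -0.81 and -0.85 with enarodustat. Cd300a, an inhibitory receptor of myeloid cells, read -0.21, -0.23 and -0.57, then 0.88, 0.62 and 0.38, then 0.62, 0.57 and 0.10 in the same order of groups. For both genes all ob/ob arrays, with or without the drug, lay above the wild-type arrays. The differences from wild type were 0.93 ± 0.16 for Cd48 (adjusted p = 0.0103) and 0.96 ± 0.19 for Cd300a (adjusted p = 0.0204) in ob/ob vehicle. With enarodustat they were 0.71 ± 0.16 (adjusted p = 0.0257) and 0.77 ± 0.19 (adjusted p = 0.0402). Leaving out 1 array ended the Cd300a call of ob/ob vehicle for wild-type replicates 2 and 3 and ob/ob vehicle replicates 1 and 2, at adjusted p of 0.0534 to 0.0748. It ended the Cd300a call of enarodustat for the 3 wild-type arrays, ob/ob vehicle replicate 2 and enarodustat replicates 1 and 2, at 0.0630 to 0.114. The Cd48 call of enarodustat ended without wild-type replicate 2 or 3 or enarodustat replicate 1 or 2, at 0.0508 to 0.0771.

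Ptprc encodes CD45, the phosphatase on the surface of all leukocytes, and its probes disagreed. Its brightest probe lists no RefSeq mRNA and read 3.38, 3.50 and 3.36 in wild type, 3.05, 2.94 and 3.07 in ob/ob vehicle and 3.04, 3.07 and 2.46 with enarodustat. On this probe all ob/ob arrays lay below all wild-type arrays (-0.39 ± 0.17 in ob/ob vehicle, adjusted p = 0.199). The brighter of its 2 probes that list a RefSeq mRNA read -1.71, -1.64 and -2.50 in wild type, -0.26, -0.22 and -0.44 in ob/ob vehicle and -0.33, -0.89 and -1.22 with enarodustat, so that all ob/ob arrays lay above all wild-type arrays. Fitted as its own feature, that probe was higher in ob/ob vehicle by 1.65 ± 0.28 (adjusted p = 0.0102) and with enarodustat by 1.14 ± 0.28 (adjusted p = 0.0355), each against wild type. The second mRNA probe was higher by 1.33 ± 0.21 in ob/ob vehicle (adjusted p = 0.0086). The remaining probe that passed the filter, without a listed mRNA, differed by -0.13 ± 0.21. The sequences of the 60-base probes are shown because the direction for Ptprc turns on which of them is read. They lie on the minus strand of chromosome 1 in build mm9, at chr1:140020575-140020634 for the brightest probe and at chr1:139960089-139960148 and chr1:140010285-140010344 for the mRNA probes. Capitals mark a run of at least 8 bases made of 1 repeated pair of bases.
Ptprc, brightest probe, no mRNA listed: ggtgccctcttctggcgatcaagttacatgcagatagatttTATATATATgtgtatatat
Ptprc, first mRNA probe: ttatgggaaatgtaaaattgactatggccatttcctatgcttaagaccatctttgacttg
Ptprc, second mRNA probe: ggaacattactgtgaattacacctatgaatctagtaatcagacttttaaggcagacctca

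The identity genes of monocytes and macrophages rose in ob/ob vehicle, 6 of 9 called, against 4.88% of features called higher. Aif1 and Ms4a7 lay above wild type on every array without being called. Adgre1, an adhesion receptor gene whose product is the standard surface antigen of mouse macrophages, read -4.34, -3.60 and -3.86 in wild type, -0.10, -1.71 and -1.53 in ob/ob vehicle and -1.04, -2.35 and -2.36 with enarodustat. Replicate 1 was the highest array of both ob/ob groups, and no ob/ob array overlapped wild type. Adgre1 was 7.07-fold higher in ob/ob vehicle (2.82 ± 0.49, adjusted p = 0.0121) and 4.06-fold higher with enarodustat (2.02 ± 0.49, adjusted p = 0.0368), each against wild type. The second of these calls was lost when any 1 of the wild-type or enarodustat arrays was left out, at adjusted p of 0.0571 to 0.0954. Between the ob/ob groups the difference was -0.80 with a 95% interval from -1.92 to 0.32. Cd68, a membrane glycoprotein of macrophage lysosomes, read -0.75, -0.76 and -1.34 in wild type, 0.87, 0.33 and 0.08 in ob/ob vehicle and 0.50, 0.25 and -0.12 with enarodustat. It was 2.60-fold higher in ob/ob vehicle (1.38 ± 0.26, adjusted p = 0.0156) and 2.24-fold higher with enarodustat (1.16 ± 0.26, adjusted p = 0.0270), where the call ended without wild-type replicate 2 or 3 or enarodustat replicate 1 or 2, at 0.0573 to 0.0814. Its second probe that passed the filter was higher by 1.83 in ob/ob vehicle.

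Cd14, the co-receptor for bacterial lipopolysaccharide, read 0.39, 0.23 and -0.06 in wild type, 1.60, 1.02 and 1.27 in ob/ob vehicle and 1.24, 0.64 and 1.14 with enarodustat. Ly86, which helps a receptor related to the lipopolysaccharide receptor reach the surface, read -2.11, -1.72 and -2.52, then 0.20, -0.56 and -0.63, then 0.05, -0.67 and -1.30. In both genes every ob/ob array was above every wild-type array, and the 2 ob/ob groups overlapped. The differences of ob/ob vehicle from wild type were 1.11 ± 0.21 for Cd14 (adjusted p = 0.0175) and 1.78 ± 0.37 for Ly86 (adjusted p = 0.0237). With enarodustat they were 0.82 ± 0.21 (adjusted p = 0.0454) and 1.48 ± 0.37 (adjusted p = 0.0406). Without single arrays the Cd14 call of ob/ob vehicle ended for wild-type replicates 2 and 3 and ob/ob vehicle replicates 1 and 3, at adjusted p of 0.0511 to 0.0628. The Ly86 call ended for wild-type replicates 1 and 3 and ob/ob vehicle replicate 1, at 0.0542 to 0.0820. With enarodustat the Cd14 call held only with enarodustat replicate 2 or ob/ob vehicle replicate 1 left out, and was otherwise lost at 0.0514 to 0.130. The Ly86 call held only with enarodustat replicate 3 or ob/ob vehicle replicate 1 left out, and was otherwise lost at 0.0515 to 0.105. A second Cd14 probe was called in ob/ob vehicle (adjusted p = 0.0401) but not with enarodustat (adjusted p = 0.0757).

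Cd86, a costimulatory ligand for T cells, was not well above background on any wild-type array and was well above it on all 6 ob/ob arrays. It read -6.49, -5.09 and -5.20 in wild type, -2.75, -4.00 and -3.73 in ob/ob vehicle and -3.41, -3.31 and -4.46 with enarodustat. Since the wild-type signal is only a bound, Cd86 was at least 3.02-fold higher in ob/ob vehicle (adjusted p = 0.0356) and at least 2.58-fold higher with enarodustat (adjusted p = 0.0443). These bounds set the mean of the bright group against, on each wild-type array, the higher of the dim probe's own value and the lowest signal well above background. They hold for this scaling only: with normexp background correction the differences were 0.34 (adjusted p = 0.141) and 0.27 (adjusted p = 0.203). With 1 array left out, the ob/ob vehicle call held only without enarodustat replicate 2 or 3 and was otherwise lost at adjusted p of 0.0502 to 0.110. The enarodustat call held only with enarodustat replicate 3 or ob/ob vehicle replicate 1 left out and was otherwise lost at 0.0546 to 0.119. F13a1 encodes a transglutaminase subunit made by monocytes and by some macrophages. It read -3.11, -3.26 and -3.81 in wild type, -1.90, -1.88 and -1.28 in ob/ob vehicle and -2.78, -2.87 and -2.79 with enarodustat, so the 3 groups did not overlap and the treated arrays lay close together near wild type. F13a1 was 3.27-fold higher in ob/ob vehicle than in wild type (1.71 ± 0.22, adjusted p = 0.00424). Its other probe that passed the filter, which lists no RefSeq mRNA, differed by 0.11 ± 0.16 between those groups.

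Aif1, the gene of the macrophage protein IBA1, read -2.86, -1.87 and -2.21 in wild type, 0.27, -1.24 and -0.57 in ob/ob vehicle and -0.13, 0.03 and -1.52 with enarodustat. Its difference in ob/ob vehicle was 1.80 ± 0.50 (adjusted p = 0.0669). Ms4a7, a membrane gene of mature macrophages, differed by 2.44 ± 0.74 (adjusted p = 0.0870), with 2 of 3 wild-type arrays well above background. Both genes varied widely between the arrays of a group, with SDs in ob/ob vehicle of 0.76 for Aif1 and 1.37 for Ms4a7, whose replicate 1 was the highest. Lst1, a small membrane protein of leukocytes, ranged from 2.63 to 3.80 over the 9 arrays, with all groups overlapping, and differed by -0.35 ± 0.25 in ob/ob vehicle (adjusted p = 0.440).

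Among the adhesion and migration receptors Cx3cr1 and Itgax rose, Itgam did not pass the test and Ccr1 stayed at background. Cx3cr1, the fractalkine receptor of patrolling monocytes and resident macrophages, read -2.35, -1.37 and -2.07 in wild type, 0.32, 0.15 and -0.24 in ob/ob vehicle and -0.37, -0.39 and -0.79 with enarodustat. Its 3 groups did not overlap. It was 4.02-fold higher in ob/ob vehicle (2.01 ± 0.26, adjusted p = 0.0043) and 2.67-fold higher with enarodustat (1.41 ± 0.26, adjusted p = 0.0135), each against wild type. Itgax, the gene of the integrin CD11c, read -2.98, -2.58 and -3.60 in wild type, -1.28, -1.63 and -1.75 in ob/ob vehicle and -1.22, -1.60 and -1.88 with enarodustat. The 2 ob/ob groups nearly coincided, at 2.82-fold (adjusted p = 0.0145) and 2.79-fold (adjusted p = 0.0137) above wild type, and their difference was -0.02 with a 95% interval from -0.64 to 0.61. Leaving out ob/ob vehicle replicate 1 ended the first call (adjusted p = 0.0584). A second Itgax probe that passed the filter, which lists no RefSeq mRNA, differed by 0.01 ± 0.15 between ob/ob vehicle and wild type. Ccr1, a receptor for inflammatory CC chemokines, stayed between -7.67 and -6.87 on all 9 arrays.

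Itgam encodes CD11b, the integrin chain of monocytes, macrophages and neutrophils. Its brightest probe read 5.25, 5.26 and 5.87 in wild type, 5.20, 5.19 and 5.46 in ob/ob vehicle and 5.57, 5.74 and 5.40 with enarodustat, with all groups overlapping. The difference in ob/ob vehicle was -0.17 ± 0.19 (adjusted p = 0.630). The second probe was lower on the ob/ob arrays than on the wild-type arrays (-0.39 ± 0.18 in ob/ob vehicle, adjusted p = 0.225). Both list a RefSeq mRNA, so reading the mRNA probes alone left Itgam as it was. The probes are printed because Itgam stood apart from Itgb2, the gene of the chain that CD11b pairs with, which was 2.11 ± 0.12 higher in ob/ob vehicle. They lie on the plus strand of chromosome 7 in build mm9, at chr7:135261755-135261814 for the brightest probe and at chr7:135212140-135212199 for the second. The 20-base run of the pair CA in the brightest probe, in capitals, was the longest such run among the 67 member probes, where the next longest was the 9-base run in the Ptprc probe above.
Itgam, brightest probe: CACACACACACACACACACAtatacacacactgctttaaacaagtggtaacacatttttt
Itgam, second probe: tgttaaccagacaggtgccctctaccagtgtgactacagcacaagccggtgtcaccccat

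**Figure D2:**
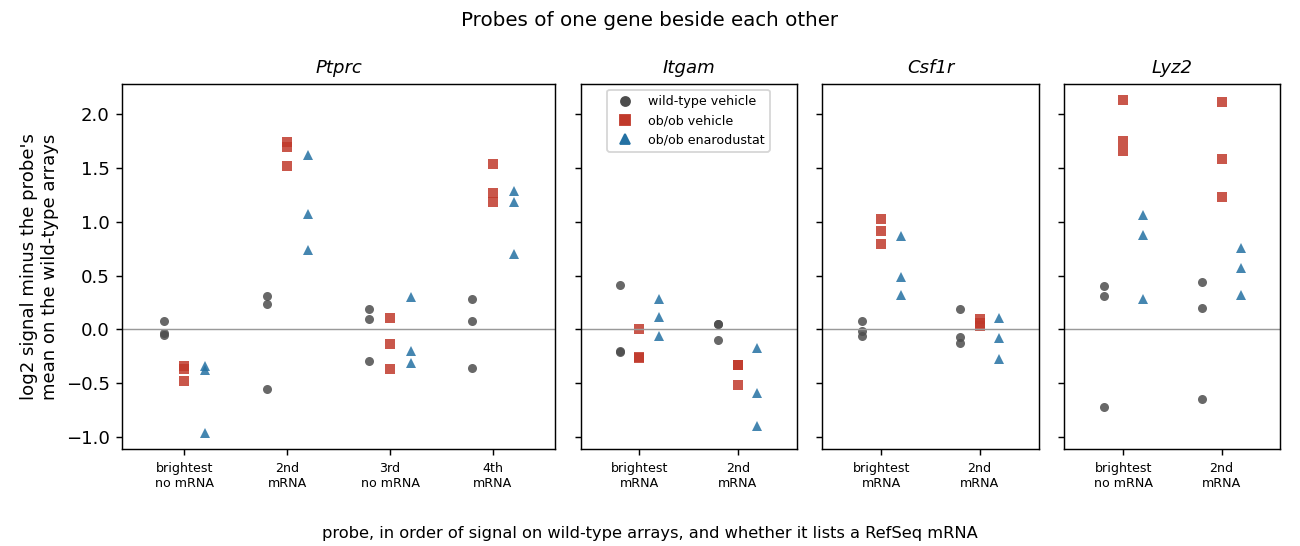
Each point is 1 array and each column 1 probe that passed the filter, as the log2 signal minus the mean of that probe on the wild-type arrays. Probes of Ptprc, Itgam, Csf1r and Lyz2 stand in order of their wild-type signal, with a note of whether a RefSeq mRNA is listed. The ob/ob vehicle arrays lie above wild type on both mRNA probes of Ptprc and below it on its brightest probe.

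Of the Fc receptors and their signalling partners 5 of 6 were called higher in ob/ob vehicle, against 4.88% of features. Among them were Fcgr1 and Trem2, which entered the test through the ob/ob arrays. Fcer1g encodes the gamma chain through which activating Fc receptors signal. It read 0.04, 0.30 and -0.45 in wild type, 1.86, 1.63 and 1.86 in ob/ob vehicle and 1.77, 1.50 and 1.11 with enarodustat. Tyrobp encodes DAP12, the adaptor of TREM2, and read -0.44, -0.28 and -1.26, then 1.75, 1.34 and 1.43, then 1.51, 1.27 and 0.61. In both adaptors every ob/ob array was above every wild-type array, and replicate 3 was the lowest array of wild type and of enarodustat. Fcer1g was 3.52-fold higher in ob/ob vehicle (1.82 ± 0.22, adjusted p = 0.00386) and 2.82-fold higher with enarodustat (adjusted p = 0.00719). Tyrobp was 4.48-fold higher in ob/ob vehicle (2.16 ± 0.30, adjusted p = 0.00537) and 3.46-fold higher with enarodustat (1.79 ± 0.30, adjusted p = 0.0101).

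Trem2, a lipid-sensing receptor of macrophages, was well above background on 1 of 3 wild-type arrays and on all 6 ob/ob arrays. It read -5.78, -5.35 and -3.64 in wild type, -2.11, -2.31 and -2.23 in ob/ob vehicle and -2.19, -2.61 and -3.24 with enarodustat. The ob/ob vehicle arrays were tight and the wild-type arrays spread, with SDs of 0.10 and 1.13. Against the mostly dim wild-type arrays the fitted difference was 2.71 ± 0.50 in ob/ob vehicle (adjusted p = 0.0152) and 2.25 ± 0.50 with enarodustat (adjusted p = 0.0277). Leaving out wild-type replicate 2 ended the first of these calls (adjusted p = 0.0595), as did leaving out ob/ob vehicle replicate 1 (0.0570). The second ended without wild-type replicate 1 or 2 or enarodustat replicate 1 or 2, at 0.0669 to 0.0894. With normexp background correction the differences were 0.85 and 0.60.

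Fcgr1, the high-affinity receptor for immunoglobulin G, was not well above background on any wild-type array, was above it on all 3 ob/ob vehicle arrays and on 1 of 3 with enarodustat. It read -7.27, -7.28 and -6.44 in wild type, -3.04, -4.50 and -3.68 in ob/ob vehicle and -3.70, -4.30 and -4.96 with enarodustat. It was at least 2.67-fold higher in ob/ob vehicle (adjusted p = 0.00484), against the bound for wild type. With normexp background correction the difference was 0.40. With enarodustat it was called as well (adjusted p = 0.00925), but no fold is given, since most arrays of both groups were at background. Fcgr3, a low-affinity activating receptor read from a probe without a listed RefSeq mRNA, was at -1.59, -2.68 and -3.79 in wild type, 0.21, -0.98 and -0.47 in ob/ob vehicle and -0.30, -1.28 and -1.41 with enarodustat. Its wild-type arrays spread widely, and all ob/ob arrays still lay above them. It was higher by 2.28 ± 0.56 in ob/ob vehicle (adjusted p = 0.0442), a call that held, with 1 array left out, only for wild-type replicate 1 and was otherwise lost at 0.0514 to 0.138. With enarodustat the difference was 1.69 ± 0.56 (adjusted p = 0.0936). The other Fcgr3 probe lists a RefSeq mRNA and was called in both ob/ob groups, by 2.12 ± 0.41 (adjusted p = 0.0177) and with enarodustat by 1.69 ± 0.41 (adjusted p = 0.0355), so the result with enarodustat turns on the probe. Fcgr2b, the inhibitory receptor for immunoglobulin G, ranged from -4.69 to -3.15 with all groups overlapping and differed by 0.41 ± 0.32 in ob/ob vehicle (adjusted p = 0.482).

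The scavenger receptors did not move as one. Msr1, which takes up modified lipoproteins, read -3.39, -4.00 and -5.92 in wild type, -2.08, -2.71 and -1.91 in ob/ob vehicle and -2.09, -2.12 and -2.18 with enarodustat. It was above background on 2 of 3 wild-type arrays, and the treated arrays lay within those of ob/ob vehicle. The difference was 2.20 ± 0.55 in ob/ob vehicle (adjusted p = 0.0489) and 2.31 ± 0.55 with enarodustat (adjusted p = 0.0354). The first call held only without wild-type replicate 1 or 3 and was otherwise lost at 0.0679 to 0.138. The second ended without ob/ob vehicle replicate 1, any 1 enarodustat array or wild-type replicate 2, at 0.0542 to 0.0926. A second Msr1 probe missed the threshold in ob/ob vehicle (adjusted p = 0.0536) and passed it with enarodustat (adjusted p = 0.0496). Mrc1, the mannose receptor CD206 of resident-type macrophages, which endothelial cells can also make, read 3.46, 3.40 and 2.36 in wild type, 3.36, 3.41 and 3.10 in ob/ob vehicle and 2.98, 3.18 and 3.25 with enarodustat. All its groups overlapped, and the difference of ob/ob vehicle from wild type was 0.22 with a 95% interval from -0.41 to 0.84. Its sign turned without wild-type replicate 3, the lowest array, at -0.14, and with array weights, at -0.04. Cd163, the receptor for haemoglobin bound to haptoglobin, was read by 2 probes. The first was at background on each of the 9 arrays, at -7.51, -7.47 and -6.99 in wild type, -5.65, -7.02 and -6.86 in ob/ob vehicle and -4.95, -6.67 and -7.33 with enarodustat. The second was above it on ob/ob vehicle replicate 1 alone, at -2.42, against -7.63 to -6.84 on the other arrays.

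All 6 tested phagocyte effectors were called in ob/ob vehicle, with rises from 0.70 to 3.10, against 4.88% of features called higher. Gpnmb stayed at background. Gpnmb, a glycoprotein of lipid-laden phagocytes, was at -7.53, -7.48 and -7.00 in wild type, -6.65, -7.04 and -6.87 in ob/ob vehicle and -6.86, -6.69 and -7.34 with enarodustat. Lgals3, the gene of galectin-3, read 0.45, 0.93 and 1.18 in wild type, 3.74, 4.05 and 4.05 in ob/ob vehicle and 3.37, 3.58 and 3.50 with enarodustat. Its 3 groups were far apart or just apart, with the treated arrays below those of ob/ob vehicle. It was 8.56-fold higher in ob/ob vehicle (3.10 ± 0.19, adjusted p = 0.000223) and 6.21-fold higher with enarodustat (2.63 ± 0.19, adjusted p = 0.000692). Its call against wild type held in every fit that was run, for both ob/ob groups. With the proximal tubule markers as a covariate, Lgals3 and Ctss stayed called in ob/ob vehicle, while Mpeg1, Cd63, Lyz2 and Lyz1 had adjusted p of 0.0523, 0.0653, 0.0731 and 0.0811. Ctss, a cysteine protease that trims antigens in macrophages, read 0.25, 0.40 and -0.38 in wild type, 3.06, 2.38 and 2.50 in ob/ob vehicle and 2.63, 2.59 and 2.01 with enarodustat. The 2 ob/ob groups overlapped, at 2.55 ± 0.27 (adjusted p = 0.00245) and 2.32 ± 0.27 (adjusted p = 0.00318) above wild type.

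Mpeg1, a pore-forming protein of the phagosome, read -1.13, -0.89 and -1.83 in wild type, 1.77, 0.78 and 0.59 in ob/ob vehicle and 1.13, 0.49 and 0.34 with enarodustat. It was 5.04-fold higher in ob/ob vehicle (2.33 ± 0.37, adjusted p = 0.00818) and 3.82-fold higher with enarodustat (1.93 ± 0.37, adjusted p = 0.0148). Its second probe that passed the filter was not called, at 1.57 ± 0.42 (adjusted p = 0.0584) in ob/ob vehicle and with an adjusted p of 0.112 with enarodustat. Cd63, a tetraspanin of late endosomes that most cells make, read 5.46, 5.43 and 5.67, then 6.14, 6.08 and 6.43, then 6.11, 6.12 and 6.05. Its arrays were tight in every group, and the rise was the smallest among the called members, at 0.70 ± 0.13 in ob/ob vehicle (adjusted p = 0.0143) and 0.58 ± 0.13 with enarodustat (adjusted p = 0.0266). Leaving out wild-type replicate 2 ended the first call (adjusted p = 0.0576), and the second ended without wild-type replicate 1 or 2 or any enarodustat array, at 0.0647 to 0.0882.

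The lysozyme genes Lyz1 and Lyz2 lie next to each other and are near copies, so their probes may share signal. Lyz2, the lysozyme of macrophages and neutrophils, read 3.19, 3.10 and 2.06 in wild type, 4.53, 4.91 and 4.43 in ob/ob vehicle and 3.84, 3.66 and 3.06 with enarodustat. Lyz1 read 1.07, 0.95 and -0.01, then 2.37, 2.70 and 2.27, then 1.68, 1.46 and 0.78. In both, the treated arrays lay below all ob/ob vehicle arrays and overlapped wild type. The rises in ob/ob vehicle were 1.84 ± 0.32 for Lyz2 (adjusted p = 0.0125) and 1.78 ± 0.32 for Lyz1 (adjusted p = 0.0144). With enarodustat the differences from wild type were 0.74 ± 0.32 (adjusted p = 0.186) and 0.64 ± 0.32 (adjusted p = 0.248). The brightest Lyz2 probe lists no RefSeq mRNA. A second Lyz2 probe, which lists one, followed it, with 1.64 ± 0.31 in ob/ob vehicle and -1.09 ± 0.31 between the ob/ob groups. In the best ungapped alignment on either strand the Lyz1 probe shared 24 of 59 overlapping bases with the brightest Lyz2 probe and 21 of 55 with the second. Whether a probe also matches the other gene's transcript was not tested.

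**Figure D3:**
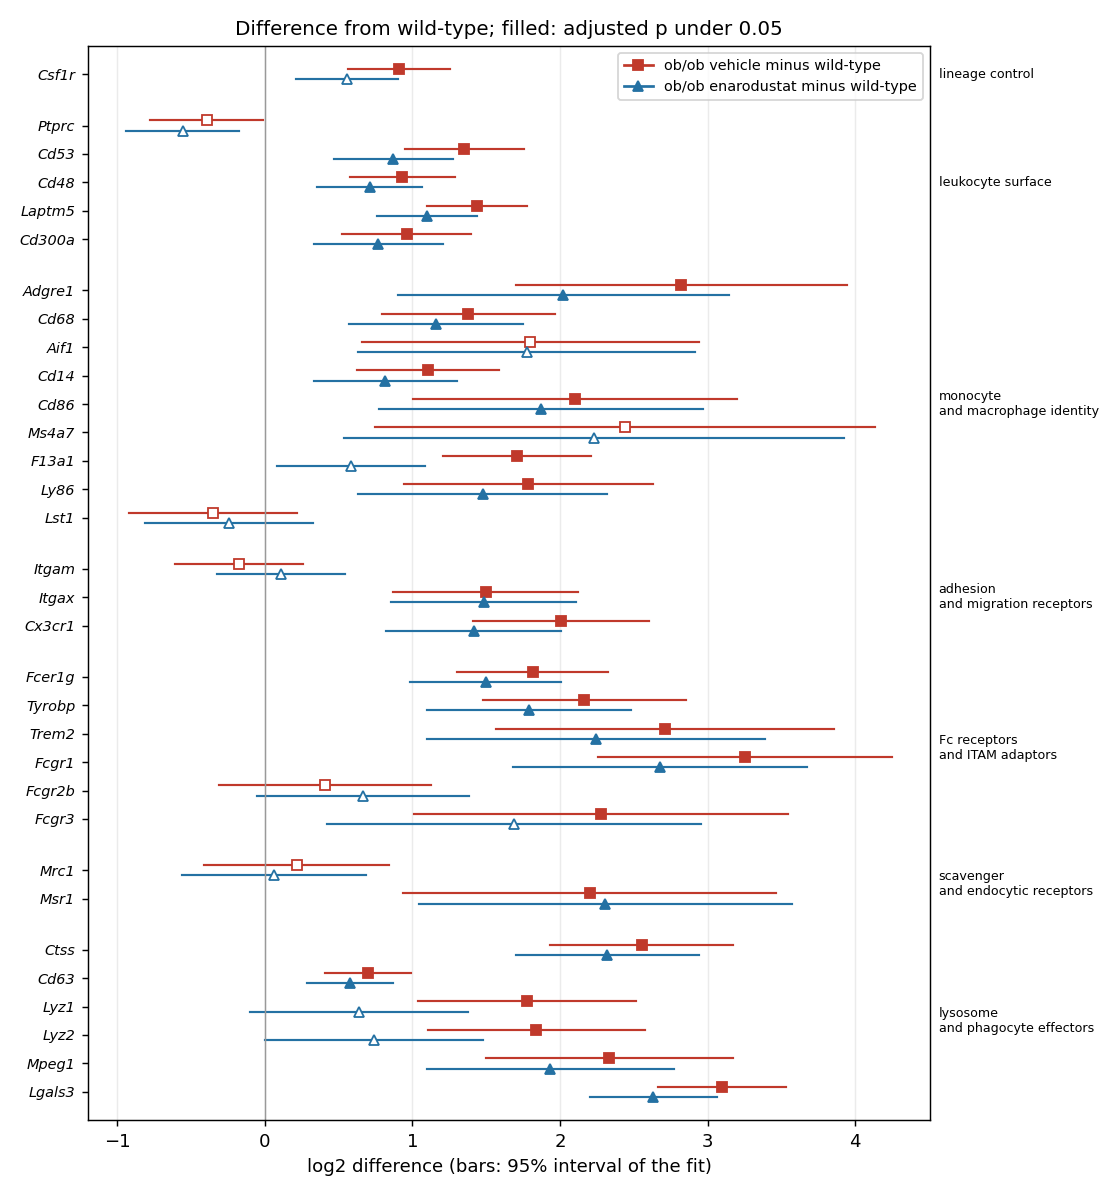
Squares are ob/ob vehicle and triangles ob/ob enarodustat, each as the log2 difference from wild type for 1 tested member, with the 95% interval of the fit as a bar. Filled symbols mark an adjusted p under 0.05, which holds for 25 squares and 20 triangles.

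Setting the drug against its vehicle asks whether enarodustat altered these genes in diabetic glomeruli. F13a1, Lyz1 and Lyz2 had the largest differences among the tested members, and none of them passed the adjusted threshold. F13a1 was 1.13 ± 0.22 lower (log2 difference -1.13, 95% interval -1.63 to -0.63, limma's unadjusted p = 0.000733, adjusted p = 0.504). Lyz1 was at -1.14 ± 0.32 and Lyz2 at -1.10 ± 0.32, both with an adjusted p of 0.681. The other members at an unadjusted p under 0.05 were Cd53 at -0.48 ± 0.18, Lgals3 at -0.46 ± 0.19, Csf1r at -0.35 ± 0.15 and Laptm5 at -0.34 ± 0.15, each with an adjusted p of 0.707. The treated arrays lay below all ob/ob vehicle arrays for 7 members, Cd53, Laptm5, F13a1, Cx3cr1, Lyz1, Lyz2 and Lgals3, against 9.49% of features, and above them for none, against 6.51%. An adjusted p that misses the threshold does not show that the groups were alike. For Ms4a7, for example, the 95% interval ran from -1.90 to 1.49.

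Several members differed little between the ob/ob groups. The differences were -0.02 for Itgax, -0.03 for Aif1, 0.11 for Msr1, -0.12 for Cd63 and -0.23 for Ctss, with 95% intervals of -0.64 to 0.61, -1.17 to 1.12, -1.16 to 1.37, -0.41 to 0.17 and -0.85 to 0.39. The narrowest of these, for Cd63, still allows a fall of 0.41 on the log2 scale.

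**Figure D4:**
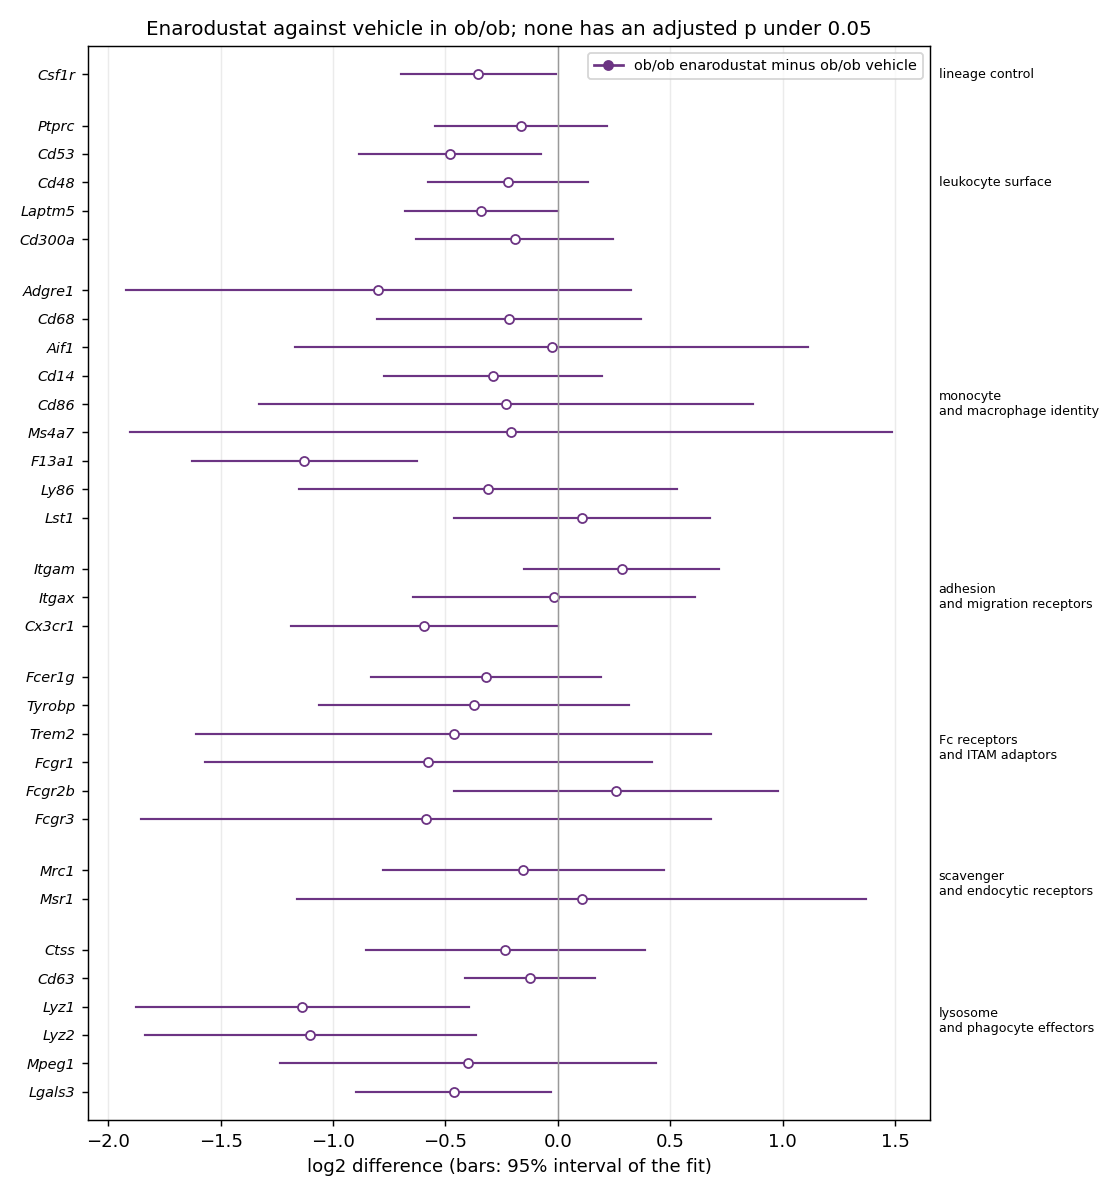
Each point is the log2 difference of ob/ob enarodustat minus ob/ob vehicle for 1 tested member, with the 95% interval of the fit as a bar. Open symbols mark an adjusted p of 0.05 or more, which holds for every member, and 28 of the 32 points lie below 0.

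Single arrays moved with these values. Within ob/ob vehicle, replicate 1 was the highest array for 20 of the 32 tested members. Within enarodustat, replicate 1 was the highest for 24 and replicate 3 the lowest for 27, and replicate 3 was the 1 array on a slide of its own, while the other 8 shared a slide. The median of the tested members on the enarodustat arrays was 0.28, 0.14 and -0.45, against 0.59, 0.24 and -0.08 on the ob/ob vehicle arrays and -1.17, -1.13 and -1.73 on the wild-type arrays. Without enarodustat replicate 3 the median difference between the ob/ob groups over all 36 members was -0.13. A slide term takes up enarodustat replicate 3 whole, so the fit with the slide as a block repeats the one without that array. In it 24 members were called higher in ob/ob vehicle and 17 with enarodustat, each against wild type. The share of all features called in that fit is not given.

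Markers of proximal tubule differed between arrays of the same group. The median of the 24 markers was 0.16, -0.46 and 3.41 on the wild-type arrays, -0.58, -0.12 and -2.60 on the ob/ob vehicle arrays and -0.49, 2.21 and -0.77 with enarodustat. The summed linear signal of the list, in units of the 75th percentile, ranged from 89.0 to 702 in wild type, from 41.8 to 89.5 in ob/ob vehicle and from 64.6 to 272 with enarodustat, and none of its genes was below background on all arrays of a group. Wild-type replicate 3, the array with the most tubule signal, was also the lowest wild-type array for 20 of the 32 members. The mean of the tubule markers on each array, rather than the median above, served as a covariate. In that fit 10 members were called higher in ob/ob vehicle and 17 with enarodustat, while the median difference over all 36 was 1.41 and 1.13. The 10 were Cd53, Laptm5, F13a1, Cx3cr1, Fcer1g, Tyrobp, Trem2, Fcgr1, Ctss and Lgals3. Without wild-type replicate 3 and enarodustat replicate 2, the arrays with the most tubule signal in their groups, 19 members were called in ob/ob vehicle and 8 with enarodustat. The share of all features called is given for neither of these fits. The lower counts may follow fewer calls over all features, which was not tested.

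Markers of some other cells differed between the groups too, in either direction, and their part in the result was not tested. Of all features, 4.88% were called higher in ob/ob vehicle than in wild type and 2.66% lower. With enarodustat these shares were 6.11% and 4.09%. Podocyte markers were lower in ob/ob vehicle, 9 of 15 called, with summed linear signals of 968 to 1076 in wild type, 691 to 818 in ob/ob vehicle and 536 to 702 with enarodustat. Mesangial markers were higher, 5 of 13 called, with sums of 416 to 613, 912 to 1021 and 775 to 913. Of the lymphocyte markers, 2 of 11 tested were higher in ob/ob vehicle (Nkg7 and Lck) and 5 with enarodustat (also Cd79b, Gzma and Cd8b1), each against wild type, and their sums ranged from 7.74 to 8.61, from 8.79 to 9.67 and from 9.13 to 9.71. The natural killer cell gene Ncr1 was at background throughout. Ly6g was the 1 neutrophil marker of 9 tested that was called higher in ob/ob vehicle, by 1.52 ± 0.26, and 1 was lower at an unadjusted p under 0.05. With enarodustat against wild type, 1 of the 9 was called higher and 1 lower. The neutrophil sums were 4.64 to 8.36 in wild type, 6.15 to 36.7 in ob/ob vehicle and 5.41 to 11.6 with enarodustat. No mast cell marker of 5 tested was called, 1 was lower at an unadjusted p under 0.05, and Mcpt4 and Tpsab1 were at background throughout. Distal nephron markers had higher means with enarodustat than in ob/ob vehicle for 12 of 12, at a median of 1.53 with 0 called, and than in wild type at a median of 1.51 with 1 called. Endothelial markers were higher in ob/ob vehicle for 2 of 14 and with enarodustat for 3, each against wild type. Of 7 dendritic cell markers tested, Bst2 was higher and Flt3 lower in ob/ob vehicle. Erythrocyte markers were higher with enarodustat than in wild type, 6 of 7 tested, at a median of 3.31.

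**Figure D5:**
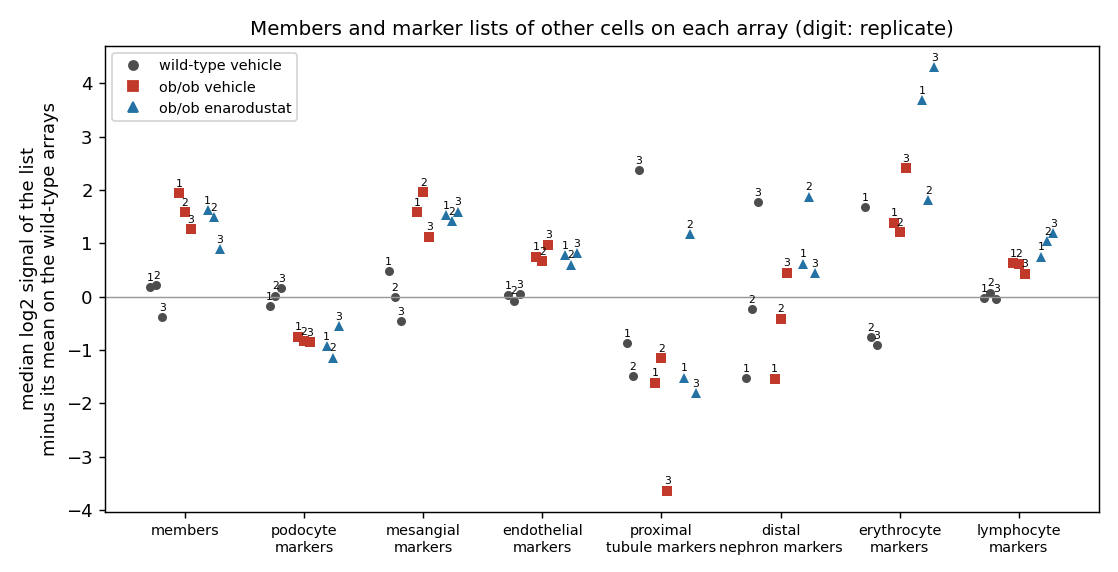
Each point is the median log2 signal of a list's tested genes on 1 array, minus the mean of that median over the wild-type arrays, with the replicate number beside it. The 3 wild-type arrays lie below the 6 ob/ob arrays for the 32 tested members and above them for the podocyte markers, while proximal tubule markers spread widely within each group.

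Other genes of the myeloid lineage were read from lists. Among monocyte genes 8 of 13 rose in ob/ob vehicle and 0 fell, with a list median of 1.14 against 0.02 over all features tested. For this list and those below, 4.88% of features were called higher in ob/ob vehicle and 2.66% lower. Chil3, a chitinase-like protein of monocytes, macrophages and neutrophils, rose by 3.77 ± 0.57 (adjusted p = 0.00722), from a mean of -2.47 to 1.30. Ccr2, the receptor that recruits monocytes from blood, rose by 1.69 ± 0.25 (adjusted p = 0.00707). Ly6c2 and its near copy Ly6c1, which mark inflammatory monocytes but are also made by endothelial cells, rose by 1.14 ± 0.17 and 1.09 ± 0.17 (adjusted p = 0.0069 and 0.00746). Treml4, Ifitm6, Ms4a6c and S100a4 rose as well, by 1.66 to 2.61. With enarodustat 7 of the 13 were higher than in wild type, against 6.11% of features, and 0 lower, against 4.09%. None of the 13 was called between the ob/ob groups.

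Of the myeloid transcription factors 5 of 14 rose in ob/ob vehicle and 1 fell. Tfec, a macrophage relative of MITF, rose by 2.00 ± 0.19 (adjusted p = 0.00151). Irf5, which drives inflammatory genes, rose by 1.39 ± 0.21 (adjusted p = 0.00707) and Irf8, needed for monocyte development, by 0.79 ± 0.12 (adjusted p = 0.00818). Nr1h3 rose by 0.62 and Runx1 by 0.82. Among growth factors and their receptors 1 of 5 tested, Csf2rb, rose (1.16 ± 0.25, adjusted p = 0.0286). The ligands of the receptor encoded by Csf1r differed by 0.37 ± 0.13 for Csf1 (adjusted p = 0.121) and by -0.03 ± 0.23 for Il34 (adjusted p = 0.950).

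Genes of lipid-laden macrophages were higher in ob/ob vehicle, 6 of 12, with 0 lower and a median of 0.84. Itgb2, the common chain of leukocyte integrins, rose by 2.11 ± 0.12 (adjusted p = 0.000173), Apoe, a lipid carrier, by 1.54 ± 0.21 (adjusted p = 0.00523) and Plin2, which coats lipid droplets, by 1.29 ± 0.14 (adjusted p = 0.00279). Fabp5, a carrier of fatty acids, rose by 0.85, and Cd9 and Axl were also called. Mesangial and endothelial cells make several of these genes too. Among activation genes 4 of 11 tested rose and 1 fell. They were Mmp12, the macrophage elastase (2.80 ± 0.46, adjusted p = 0.00983), Cybb, the catalytic subunit of the phagocyte oxidase (2.23 ± 0.39, adjusted p = 0.0123), and the receptors Tlr4 (1.43 ± 0.21, adjusted p = 0.00647) and Tlr2 (0.77 ± 0.14, adjusted p = 0.0132). Tlr7, a receptor for RNA, fell by 0.94 in log2 units, with an adjusted p of 0.0130. Arg1 and Retnla were not above background on any array of either ob/ob group.

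Of the other lysosomal genes 2 of 15 rose in ob/ob vehicle, among them Ctsk, a collagen-degrading cathepsin (1.79 ± 0.28, adjusted p = 0.00769), and Ctsh fell by 1.06 (adjusted p = 0.00411). Their median was 0.38, and Lamp1 and Lamp2, membrane proteins of every lysosome, differed by 0.23 ± 0.10 (adjusted p = 0.197) and 0.34 ± 0.09 (adjusted p = 0.0665). Of the resident macrophage genes 1 of 10 tested was called, Stab1 (0.61 ± 0.11, adjusted p = 0.0156), which endothelial cells also make. With enarodustat 3 of the 10 were higher than in wild type, Stab1, Cd74 and Gas6, against 6.11% of features, and 0 lower, against 4.09%. The list medians were 0.70 in ob/ob vehicle and 0.91 with enarodustat. The complement genes C1qa, C1qb and C1qc had differences of 3.42 ± 0.93, 1.81 ± 0.57 and 3.55 ± 1.02, with adjusted p of 0.0629, 0.0959 and 0.0739. Vsig4 and Timd4 were not above background on any array. Between the ob/ob groups no gene of these lists was called by limma. At an unadjusted p under 0.05, counts over the 7 lists were 0 higher and 0 to 2 lower, the 2 being Marco and Lyve1 of the resident list.

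Promoters were read for the 28 members listed in the RefSeq table of build GRCm38.p6, as a window of mostly upstream sequence around the start site. Adgre1, Cd14, Cd86, Csf1r, Lst1, Msr1, Spi1 and Tyrobp had no entry. A binding motif of PU.1, GAGGAAGT on either strand, was found in 3 of the 28 (10.7%), all of them called in ob/ob vehicle, against 3.69% of 27025 genes with a promoter in the table. The C/EBP motif TTGCNNAA was found in 5 (17.9%, against 12.2%), the AP-1 motif TGANTCA in 5 (17.9%, against 8.97%) and the MiT/TFE motif TCACGTG in 0 (against 4.29%). With 28 promoters these shares are a description, and a match is a stretch of letters and not a bound site. The promoters of Ctss, F13a1 and Cd53 are printed because these genes rose and hold the PU.1 motif close to the start site, in capitals, where ACTTCCTC is the motif on the opposite strand. Its first base is at position -2 for Ctss, 15 for F13a1 and 7 for Cd53, counted from the start site as 1. The windows are chr3:95526536-95526835 on the plus strand for Ctss, chr13:37049164-37049463 on the minus strand for F13a1 and chr3:106790100-106790399 on the minus strand for Cd53.
Ctss promoter: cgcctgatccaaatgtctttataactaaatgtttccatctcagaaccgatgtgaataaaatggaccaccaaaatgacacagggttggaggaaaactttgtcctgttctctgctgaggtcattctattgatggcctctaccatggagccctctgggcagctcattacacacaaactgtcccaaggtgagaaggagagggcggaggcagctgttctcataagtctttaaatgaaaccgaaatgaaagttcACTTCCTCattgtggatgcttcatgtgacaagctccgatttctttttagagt
F13a1 promoter: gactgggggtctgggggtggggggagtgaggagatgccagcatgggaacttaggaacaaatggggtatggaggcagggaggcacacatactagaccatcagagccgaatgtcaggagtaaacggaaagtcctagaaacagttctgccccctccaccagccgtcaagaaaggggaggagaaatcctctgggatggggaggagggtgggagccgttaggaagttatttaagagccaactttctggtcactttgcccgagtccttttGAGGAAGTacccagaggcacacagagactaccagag
Cd53 promoter: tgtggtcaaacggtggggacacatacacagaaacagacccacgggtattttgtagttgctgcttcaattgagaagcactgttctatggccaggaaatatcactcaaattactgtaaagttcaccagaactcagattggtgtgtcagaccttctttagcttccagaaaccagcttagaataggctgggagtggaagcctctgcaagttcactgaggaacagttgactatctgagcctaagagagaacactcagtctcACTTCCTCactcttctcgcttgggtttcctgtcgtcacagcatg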

How the data were processed

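Total RNA of isolated glomeruli was measured on Agilent arrays in 1 colour (Cy3), per the labels. The arrays were extracted with Agilent Feature Extraction 11.5.1.1 and limma was used, per the submitters' processing notes. The deposited scanner files hold spot intensity on a linear scale, background-subtracted within each array, per the file headers, with probe coordinates in build mm9. The deposited value table holds log2 values. At least 99.99% of its probes lay within 0.02 of the log2 processed signal plus 1 constant per array, close to minus the log2 75th percentile, and its column medians ran from -3.10 to -2.93. Its scale, centring and direction were found this way and are not stated in the sources used here.

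Control and outlier spots were left out and the spots of a probe averaged. The values are log2 processed signal minus the 75th percentile of each array. A linear model of 3 groups was fitted to 9 arrays with limma 3.58.1 in R 4.3.3 (lmFit, eBayes), over 24155 features (18287 named), with Benjamini-Hochberg adjustment over all of them. Calls have an adjusted p under 0.05. The fit was tested on simulated data. Probes were named through the RefSeq table of assembly GRCm38.p6: 33903 by accession, 9458 by symbol and 488 by synonym, while 2084 were left with the array name and 10672 were unnamed. Figures used matplotlib 3.10.9 in Python 3.11.15. The arrays' number limits the precision.

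The members and lists were chosen with earlier results of these data known. Named in full are members called in at least 1 comparison and the main identity genes, and from each related list up to 4 genes with the smallest p in ob/ob vehicle against wild type, plus all called where at most 5. Some genes of these lists are counted but not reported here by name. Others named, among them Csf1, Il34, Lamp1, Lamp2, the C1q genes, Marco and Lyve1, were chosen after their values were seen. Replicate numbers were checked for pairing: deviations of same-numbered arrays correlated at -0.31 to 0.27. Without values for differently numbered arrays this does not settle whether the numbers pair samples, and the main fit did not pair them. Alternatives were other normalizations, filters, probe rules, blocks, weights, a tubule covariate and leaving out arrays.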

Additional observations from a re-analysis of the deposited data

How the results depend on the processing

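The count of members called higher in ob/ob vehicle against wild type was 25 and ranged from 17 to 24 with 1 array left out. It stayed within 1.5 times of 25 in 14 of 15 other planned settings, and was 10 with the proximal tubule covariate. The slide block, among these settings, repeats the fit without enarodustat replicate 3. The count called lower was 0 and became 1, Ptprc on its brightest probe, with array weights. The median over members was 1.60, and 1.43 to 1.75 with 1 array left out. It was 0.81 with normexp background correction, which was followed by quantile normalization. With enarodustat against wild type the count higher was 20, and 9 to 20 with 1 array left out: 9 without enarodustat replicate 1, 11 without enarodustat replicate 2, 10 without wild-type replicate 2 and 13 without wild-type replicate 3. It was 9 with no filter on dim probes, 12 with 2 groups in the fit and 8 without wild-type replicate 3 and enarodustat replicate 2. The count lower was 1, Ptprc on its brightest probe, with normexp background correction and with array weights. The median was 1.11, and 0.63 with normexp background correction. Between the ob/ob groups the counts were 0 in every setting, and the median of -0.23 ranged from -0.40 to -0.13 with 1 array left out. Reading members from probes that list a RefSeq mRNA, an alternative chosen after seeing the data, gave 26 and 22 members higher. The fit with a replicate block gave 23 and 18 and no called member changed sign in it. Of the 25 calls, 13 held in every planned fit of whole genes apart from the covariate, as did 4 of the 20. Dim signals limit Fcgr1, Cd86, Trem2, Ms4a7 and Msr1 in wild type. Shares of all features called are given only for the main fit and for the changed filters on dim probes. In the other settings a change in a count may follow a change over all features, which was not tested.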

Other observations

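Some probes of members were bright on 1 array only. The second Cd163 probe stood at -2.42 on ob/ob vehicle replicate 1, and 1 Itgax probe stood at -1.78 on ob/ob vehicle replicate 2, against -7.41 to -6.59 on the other 8 arrays. Neither probe passed the filter. Il1b, an inflammatory cytokine gene, differed by -1.28 ± 0.52 between the ob/ob groups (adjusted p = 0.707). These were picked out after their values were seen.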
